A study of Mus musculus with 6 samples.

Results

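The 48 genes of this account encode the machinery that starts and copies DNA: the origin recognition and licensing factors, the replicative helicase, the polymerases, the sliding clamp with its loader, and the factors that finish and protect the new strands. They were taken by symbol from a table of 21929 protein-coding genes. Each symbol matched exactly 1 row, and all 48 passed the filter on low values. The members were grouped into 9 sets by their step in replication, with earlier results of these data known.

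The RNA came from L929 cells, an established line of mouse connective-tissue fibroblasts, grown together with tumour cells and grouped by the labels as Biotin-positive or Biotin-negative. The 3 Biotin-positive libraries are labelled as L929 cells that interacted with MFCSTCL, an abbreviation the labels do not spell out, and the 3 Biotin-negative libraries as L929 cells that did not interact with the tumour. Both groups shared the co-culture and 1 batch label, L929 cells grown alone were not analysed here, and the labels do not say how biotin was attached. Both groups are 1 cell line, and separate cultures for the 3 libraries of a group are not stated, so the p-values reflect library-to-library spread alone, which may be technical.

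Values are in FPKM, fragments per kilobase of gene scaled to the fragments of each library, as the authors deposited them. Library sums ran between 349753 and 356681 FPKM in the Biotin-positive group and between 337771 and 340511 FPKM in the Biotin-negative group, and the number of reads behind them is unknown. The share of mitochondrial transcripts in the sum was 3.75 to 3.88% in Biotin-positive and 3.60 to 3.92% in Biotin-negative libraries. Of 11 fibroblast markers 7 reached testing, with Vim and S100a4 higher and Col1a1, Col1a2, Col3a1, Pdgfra and Pdgfrb lower in Biotin-positive cells. Dcn, Lum, Thy1 and Fap stayed under 1 FPKM in every library. Of 18 epithelial markers 15 stayed under 1 FPKM in every library, with Epcam and Cdh1 at or below 0.023 FPKM, while Krt7, Krt8 and Cdh17 were higher in Biotin-positive cells. Krt8 lay between 20.4 and 21.1 FPKM in Biotin-positive libraries, against 0.0204 to 0.0509 FPKM in Biotin-negative libraries. The epithelial list summed to between 47.9 and 50.1 FPKM in Biotin-positive libraries and between 2.13 and 2.33 FPKM in Biotin-negative libraries, and the part of this difference in the values below was not tested. Of 8 immune markers Cd14 and Lyz2 were higher and Cd68 lower, while Ptprc, Cd3e and Adgre1 were at or below 0.035 FPKM, and all 5 endothelial markers stayed under 1 FPKM.

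In G1 phase the origin recognition complex, together with CDC6 and CDT1, loads the MCM2-7 ring onto DNA, and geminin blocks CDT1 once S phase has begun. The DDK and CDK kinases then turn the ring into the active CMG helicase by the joining of CDC45 and the GINS complex. DNA polymerase alpha with primase starts each strand, polymerase epsilon extends the leading and polymerase delta the lagging strand, and both run on the PCNA ring that the RFC complex loads. Many of these genes are textbook targets of E2F transcription factors, which switch them on in dividing cells at the passage into S phase.

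The replication machinery was higher in Biotin-positive cells at nearly every step. Of the 48 genes, 43 rose, 3 fell and 2 did not pass the test, which was limma on log2(FPKM + 1) over 11029 genes with a Benjamini-Hochberg adjusted p under 0.05. Over all tested genes 37.8% rose and 36.1% fell, 73.9% together. The median log2 difference was 0.68 for the 48 genes, against 0.01 for all tested genes. A log2 difference of 0.5 or more was reached by 35 of the 48, against 15.9% of all tested genes. Differences of 1 or more were rarer, with 5 of the 48, a larger share than the 5.30% of all tested genes. The median fold over the 48 genes was 1.65 and the highest 2.41, and 32 lay between 1.5 and 2.5. The 3 that fell, Orc3, Orc4 and Orc5, are all subunits of the origin recognition complex. In the 43 genes that rose every Biotin-positive library lay above every Biotin-negative one, as it did for 39.1% of all tested genes, and in the 3 that fell every one lay below, as for 37.8%. In bulk RNA, more cells that express a gene and more RNA per cell cannot be told apart.

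The 48 genes together held 0.426, 0.418 and 0.422% of the summed FPKM in the Biotin-positive libraries, against 0.279, 0.279 and 0.283% in the Biotin-negative libraries. Pcna led the list in both groups and Dbf4 came next in both. The lowest levels belonged to Cdc6 and Orc1 in Biotin-positive cells and to Orc1 and Cdc45 in Biotin-negative cells. Orc4 shifted most in rank. It held rank 39 of 48 in Biotin-positive cells and rank 9 in Biotin-negative cells, whereas Gmnn held rank 6 and rank 16, and Lig1 rank 10 and rank 24.

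**Figure D1:**
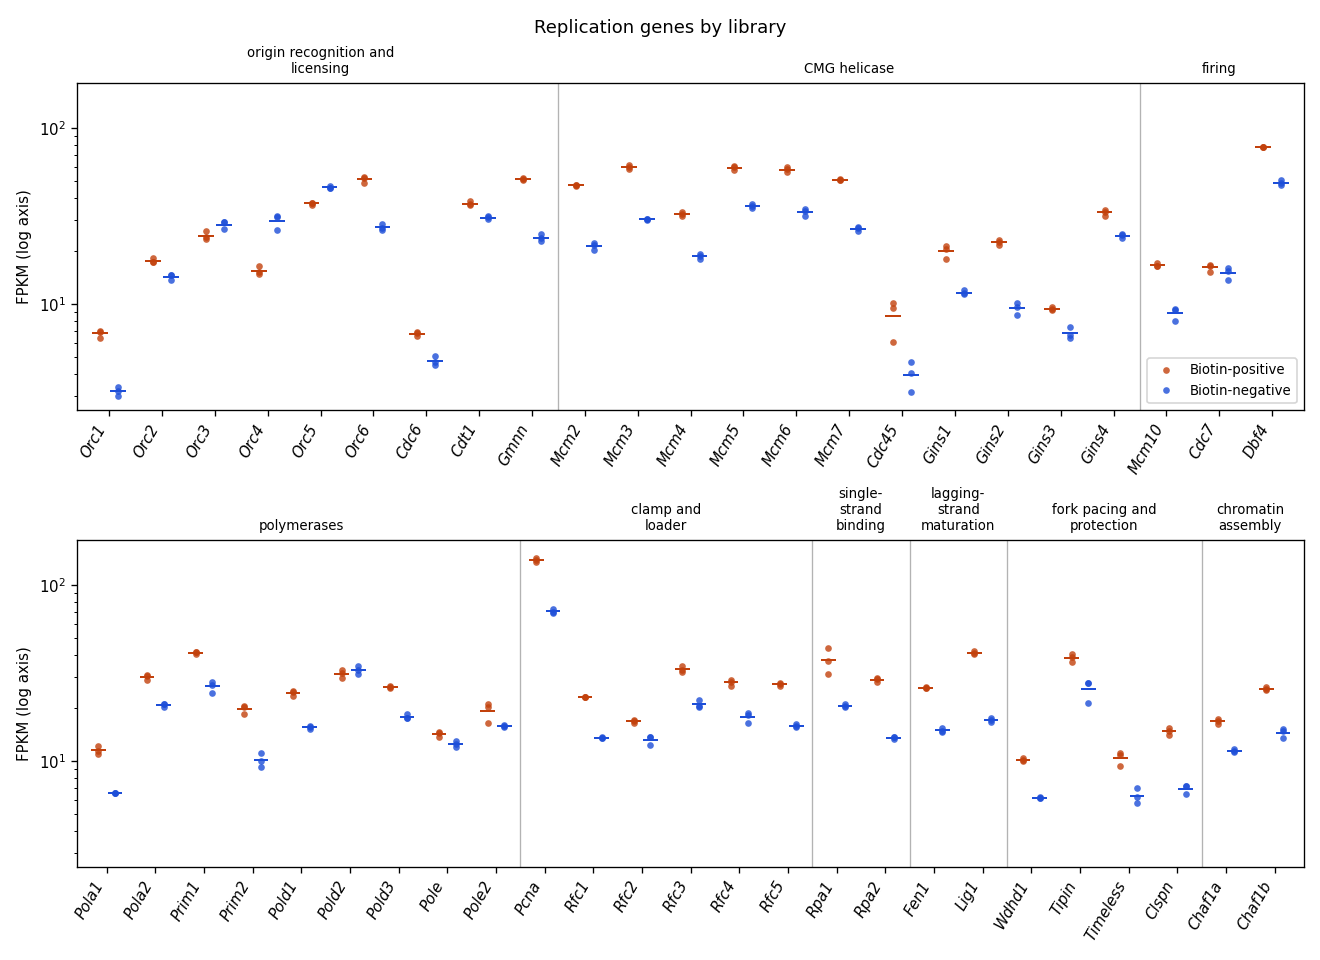
FPKM of each replication gene in each library on a log axis, by step, with Biotin-positive libraries in orange to the left of Biotin-negative libraries in blue and a bar at each mean of 3. The orange points lie above the blue ones for 43 genes, below them for Orc3, Orc4 and Orc5, and overlap them for Cdc7 and Pold2.

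Promoter sequence was compared among the members, since E2F binding sites near the start of transcription are a known shared feature of replication genes. RefSeq windows on GRCm38.p6, from 250 bases before to 50 bases after an annotated start, were found for 39 of the 48 genes in 48 windows. Gmnn, Mcm4, Gins1, Gins2, Gins4, Prim2, Pole, Rfc2 and Tipin had no window. The 8-letter E2F-type motifs TTTCCCGC, TTTGGCGC and TTTCGCGC were searched on both strands. At least 1 of them stood in the windows of 16 of the 39 genes (41.0%), against 380 of 8808 tested genes with a window (4.31%), and in 33.3% of the members' windows, against 1.84% of all 32851 windows. TTTCCCGC stood in 16.7% of the members' windows and 1.07% of all, TTTGGCGC in 12.5% and 0.514%, and TTTCGCGC in 14.6% and 0.323%. Per gene, other short motifs of cell-cycle and housekeeping promoters lay closer to the background. CCAAT was found in 56.4% of the members and 43.8% of tested genes, TTTGAA in 17.9% and 14.4%, and GGGCGG in 74.4% and 70.2%. Per window, GGGCGG stood in 70.8% of the members' windows and 35.7% of all, and TTTGAA in 16.7% and 17.9%. CCAAT also stood in a larger share of the members' windows than of all windows. A match is a run of letters and was not tested for binding.

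The promoters of the helicase genes Mcm5 and Mcm6 are shown because each holds overlapping matches on both strands, with the letters of the matches in capitals. They are the 250 bases before the RefSeq start site, 5′ to 3′ on the strand of the gene, at chr8:75109259-75109508 on the plus strand for Mcm5 and chr1:128359706-128359955 on the minus strand for Mcm6 (GRCm38.p6), and neither stretch touches an annotated GENCODE exon.
Mcm5: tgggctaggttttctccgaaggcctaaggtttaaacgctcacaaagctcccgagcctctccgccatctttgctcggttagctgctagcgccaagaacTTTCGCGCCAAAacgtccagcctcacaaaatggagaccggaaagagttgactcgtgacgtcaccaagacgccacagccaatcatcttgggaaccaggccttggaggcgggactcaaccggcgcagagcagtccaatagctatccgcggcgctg
Mcm6: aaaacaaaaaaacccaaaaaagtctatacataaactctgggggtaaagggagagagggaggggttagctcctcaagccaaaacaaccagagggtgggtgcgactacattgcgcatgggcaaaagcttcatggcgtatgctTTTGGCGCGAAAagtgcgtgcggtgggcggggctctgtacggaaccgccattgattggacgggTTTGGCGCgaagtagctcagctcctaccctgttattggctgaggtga

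In Mcm5 the 2 matches overlap, and in Mcm6 a second pair overlaps in the same way with 1 more match nearer to the start. Stretches of 30 bases, with the matching letters again in capitals, are shown for genes at other steps, with 2 matches in Rfc3. They include Orc3, which holds the letters and was lower in Biotin-positive cells. The plus-strand genes are Orc1 (chr4:108579416-108579445), Cdc6 (chr11:98908002-98908031) and Lig1 (chr7:13278841-13278870), and the minus-strand genes are Orc3 (chr4:34614965-34614994), Pola1 (chrX:93632275-93632304) and Rfc3 (chr5:151651200-151651229).
Orc1: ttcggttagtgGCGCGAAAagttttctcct
Orc3: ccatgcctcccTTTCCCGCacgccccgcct
Cdc6: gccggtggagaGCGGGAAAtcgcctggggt
Pola1: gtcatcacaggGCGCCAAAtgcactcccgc
Rfc3: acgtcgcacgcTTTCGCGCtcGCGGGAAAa
Lig1: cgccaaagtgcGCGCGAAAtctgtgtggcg

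The median difference was nearly the same with and without these letters. The 16 genes with a match had a median log2 difference of 0.67, with 15 higher and 1 lower, and the 23 genes with a window but no match had a median of 0.66, with 19 higher, 2 lower and 2 not passing. Differences ran from -0.20 (Orc3) to 1.22 (Lig1) in the genes with a match and from -0.90 (Orc4) to 1.11 (Mcm2) in those without. The 9 genes with no window all rose, with a median of 0.73. Over all tested genes 37.8% rose and 36.1% fell. Only these exact letters were searched, so genes without a match, among them Mcm2, Cdc45 and Pcna, may hold other forms of the site. Whether E2F factors act on either set was not tested.

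**Figure D2:**
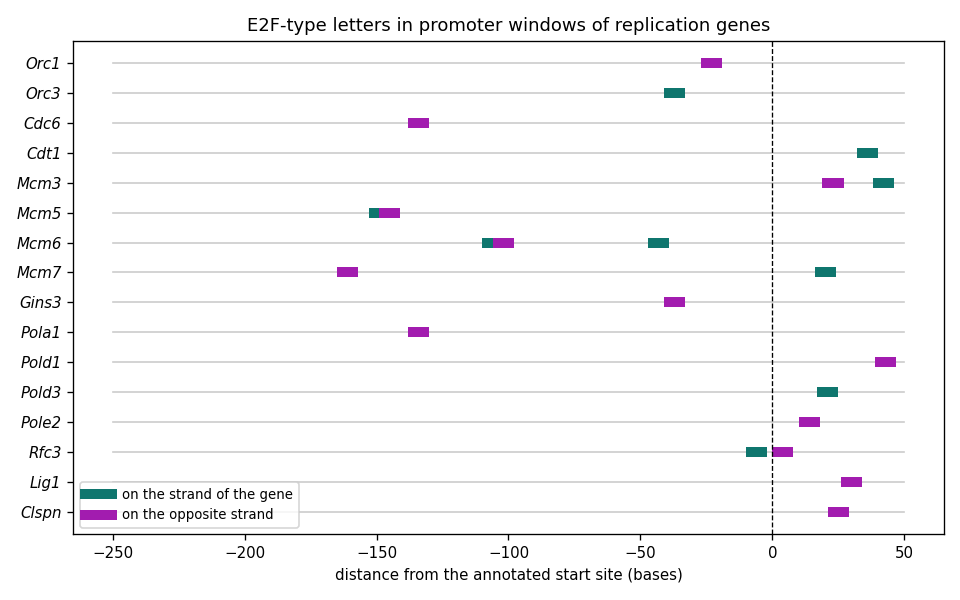
Position of the E2F-type letters in the promoter windows of the 16 replication genes that hold them, in bases from the annotated start site (dashed line, 0), with matches on the strand of the gene in green and on the opposite strand in purple. All matches of Cdc6, Mcm5 and Pola1 lie more than 100 bases before the start, as do some of Mcm6 and Mcm7. All matches of Cdt1, Mcm3, Clspn, Lig1, Pold1, Pold3 and Pole2 lie after it.

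Origin recognition and licensing was the only step with genes that fell. Of its 9 genes 6 rose and 3 fell, with a median log2 difference of 0.28. Orc1, the ATPase subunit that nucleates the origin recognition complex, lay at 7.03, 6.98 and 6.45 FPKM in Biotin-positive libraries, against 2.99, 3.39 and 3.22 FPKM in Biotin-negative libraries. This was a log2 difference of 0.90 (SE 0.0617, limma adjusted p = 2.44e-06). Orc6, the smallest subunit, had 48.97, 52.3 and 52.9 FPKM in Biotin-positive libraries, against 26.5, 28.6 and 27.1 FPKM in Biotin-negative libraries, a log2 difference of 0.88 (SE 0.0432, limma adjusted p = 3.2e-07). The 2 groups were far apart for both subunits.

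Orc2, a core subunit, rose less, with 17.3, 18.3 and 17.4 FPKM in Biotin-positive and 13.7, 14.7 and 14.7 FPKM in Biotin-negative libraries (log2 difference 0.28, limma adjusted p = 0.000521). Orc4, an AAA+ subunit of the core, was the member that fell most, and its gene lies on chromosome 2 (48902824 to 48950277, GRCm38). It had 14.7, 16.5 and 15.2 FPKM in Biotin-positive libraries, against 26.4, 31.7 and 31.1 FPKM in Biotin-negative libraries, a fold of 0.520 and a log2 difference of -0.90 (SE 0.0732, limma adjusted p = 7.08e-06). Its difference was larger than that of only 4.70% of all tested genes. Orc5, the core subunit that neighbours Orc4 in the ring, had 37.7, 37.4 and 36.7 FPKM in Biotin-positive libraries, against 45.4, 45.6 and 47.01 FPKM in Biotin-negative libraries (log2 difference -0.30, limma adjusted p = 3.65e-05). Orc3, which contacts Orc2 in the complex, had 26.1, 23.9 and 23.4 FPKM in Biotin-positive libraries, against 29.1, 26.7 and 29.1 FPKM in Biotin-negative libraries (log2 difference -0.20, limma adjusted p = 0.00742). The falls of Orc3 and Orc5 were small beside that of Orc4, and in neither did the groups overlap.

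The order of levels among the 6 subunits was not the same in the 2 groups. In Biotin-positive cells Orc6 was the highest at a mean of 51.4 FPKM and Orc1 the lowest at 6.82 FPKM, a ratio of 7.54. In Biotin-negative cells Orc5 was the highest at 46.0 FPKM and Orc1 the lowest at 3.20 FPKM, a ratio of 14.4. The mean log2 level of Orc1 and Orc6 minus that of Orc2 to Orc5 within a library was -0.23, -0.21 and -0.19 in Biotin-positive libraries, against -1.39, -1.32 and -1.42 in Biotin-negative libraries. The groups did not overlap and their means differed by 1.17 on the log2 scale. This split of the subunits was chosen with the differences of the single genes known and follows them, so the ratio is a description and no test is given.

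**Figure D3:**
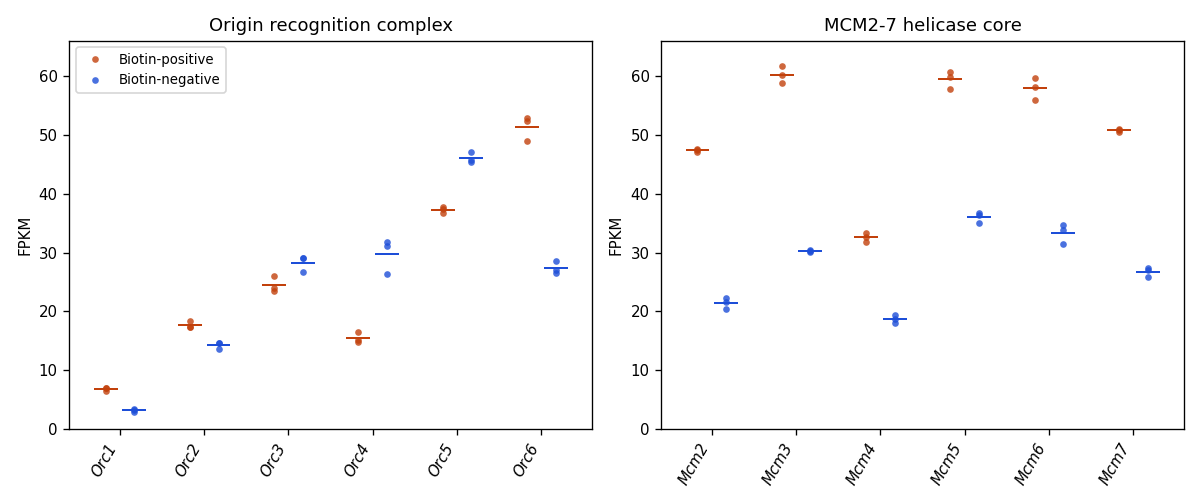
FPKM of the origin recognition complex subunits (left) and of the MCM2-7 subunits (right) in each library, Biotin-positive in orange and Biotin-negative in blue, with a bar at each mean of 3. The orange points lie below the blue ones for Orc3, Orc4 and Orc5, and above them for the other ORC subunits and for each of the 6 MCM subunits.

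The licensing factors that act on the complex all rose. Gmnn, the gene of the CDT1 inhibitor geminin (chromosome 13, 24751845 to 24761923), had 50.7, 52.3 and 51.6 FPKM in Biotin-positive libraries, against 22.7, 23.6 and 25.05 FPKM in Biotin-negative libraries (log2 difference 1.08, SE 0.0414, limma adjusted p = 8.01e-08). Cdt1, which brings the MCM ring to the origin, had 36.98, 38.4 and 36.3 FPKM in Biotin-positive and 31.3, 30.2 and 31.5 FPKM in Biotin-negative libraries (log2 difference 0.26, limma adjusted p = 0.000214). Cdc6, the loading ATPase, averaged 6.80 ± 0.183 FPKM in Biotin-positive cells and 4.77 ± 0.275 FPKM in Biotin-negative cells (SD, n = 3 each), with a log2 difference of 0.44. The licensing factor and its inhibitor thus changed places in order of level. The log2 ratio of Cdt1 to Gmnn was -0.44, -0.44 and -0.49 in Biotin-positive libraries, against 0.45, 0.34 and 0.32 in Biotin-negative libraries. The ratio was lower by 0.83 on the log2 scale in Biotin-positive cells, with no overlap. It was chosen with earlier results known and follows the differences of the single genes, so it is a description without a test.

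All 11 genes of the CMG helicase, the motor that unwinds the fork, rose, with a median log2 difference of 0.78 and a range of 0.41 to 1.16. Gins2, a subunit of the GINS tetramer of the helicase (chromosome 8, 120578633 to 120589304), moved most, with 23.2, 22.6 and 21.7 FPKM in Biotin-positive libraries, against 8.72, 10.2 and 9.57 FPKM in Biotin-negative libraries (log2 difference 1.16, SE 0.0586, limma adjusted p = 3.73e-07). Of its annotated exonic bases 67.3% overlap those of Gse1 on the opposite strand, and Gse1 averaged 3.56 ± 0.471 FPKM in Biotin-positive and 3.94 ± 0.219 FPKM in Biotin-negative cells (SD, n = 3 each). Mcm2, the subunit at the gate of the ring, had 47.6, 47.1 and 47.5 FPKM in Biotin-positive libraries, against 21.6, 20.4 and 22.2 FPKM in Biotin-negative libraries (log2 difference 1.11, limma adjusted p = 5.03e-08). Mcm3 had 61.7, 58.8 and 60.2 FPKM in Biotin-positive libraries, against 30.5, 30.1 and 30.3 FPKM in Biotin-negative libraries (log2 difference 0.97, limma adjusted p = 3.6e-08).

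The other MCM subunits moved by similar amounts, between 0.71 and 0.90 on the log2 scale. Mcm4 averaged 32.6 ± 0.803 FPKM in Biotin-positive and 18.7 ± 0.689 FPKM in Biotin-negative cells, and Mcm5 averaged 59.5 ± 1.51 and 36.02 ± 0.937 FPKM in the same order (SD, n = 3 each). Mcm6 averaged 57.9 ± 1.88 FPKM in Biotin-positive and 33.3 ± 1.64 FPKM in Biotin-negative cells, and Mcm7 averaged 50.8 ± 0.244 and 26.8 ± 0.759 FPKM. The 6 subunits, which form a ring with 1 copy of each, kept nearly the same spread of transcript levels in both groups. The highest was 1.85 times the lowest in Biotin-positive cells and 1.93 times in Biotin-negative cells, with Mcm4 the lowest in both.

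The remaining GINS genes moved less than Gins2. Gins1 averaged 20.01 ± 1.71 FPKM in Biotin-positive and 11.6 ± 0.320 FPKM in Biotin-negative cells, a log2 difference of 0.73. Gins3 averaged 9.42 ± 0.228 FPKM in Biotin-positive and 6.86 ± 0.535 FPKM in Biotin-negative cells, and Gins4 averaged 33.2 ± 1.28 and 24.4 ± 0.647 FPKM in the same order, with log2 differences of 0.41 and 0.43. Cdc45, the partner of the ring in the active helicase, varied most within a group. It had 10.1, 9.54 and 6.08 FPKM in Biotin-positive libraries, against 4.69, 4.03 and 3.18 FPKM in Biotin-negative libraries (log2 difference 0.93, SE 0.175, limma adjusted p = 0.00129), and Biotin-positive replicate 3 lay well below the other two.

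Of the 3 firing genes 2 rose. Dbf4, the regulatory subunit of the kinase that triggers origin firing, had 78.1, 77.5 and 77.7 FPKM in Biotin-positive libraries, against 50.8, 48.5 and 47.7 FPKM in Biotin-negative libraries (log2 difference 0.66, SE 0.0323, limma adjusted p = 3.29e-07). Cdc7, its catalytic partner, had 16.6, 15.3 and 16.6 FPKM in Biotin-positive libraries and 16.1, 13.7 and 15.4 FPKM in Biotin-negative libraries. The Cdc7 groups overlapped, and its log2 difference of 0.10 (SE 0.0635) did not pass (limma adjusted p = 0.196). Whether the 2 subunits differ in their change was not tested. Mcm10, a factor needed to activate the loaded helicase, had 16.4, 16.5 and 17.04 FPKM in Biotin-positive libraries, against 9.37, 7.96 and 9.21 FPKM in Biotin-negative libraries (log2 difference 0.84, limma adjusted p = 3.61e-06).

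Among 9 polymerase genes 8 rose and 1 did not pass, with a median log2 difference of 0.54. The 4 subunits of the polymerase alpha and primase complex, which lays down RNA-DNA primers, rose by 0.50 to 0.91. Prim2, the large primase subunit, had 20.6, 20.2 and 18.6 FPKM in Biotin-positive libraries, against 9.27, 9.93 and 11.03 FPKM in Biotin-negative libraries (log2 difference 0.91, limma adjusted p = 3.68e-06). Pola1, the catalytic subunit of polymerase alpha, had 12.2, 11.3 and 10.9 FPKM in Biotin-positive libraries, against 6.61, 6.61 and 6.54 FPKM in Biotin-negative libraries (log2 difference 0.71, limma adjusted p = 3.63e-06). Prim1, the catalytic primase subunit, had 41.7, 40.3 and 41.4 FPKM in Biotin-positive and 27.1, 24.4 and 28.00 FPKM in Biotin-negative libraries (log2 difference 0.62, limma adjusted p = 7.56e-06). The groups did not overlap for any of these. Pola2, the regulatory subunit, averaged 29.9 ± 1.07 FPKM in Biotin-positive and 20.8 ± 0.419 FPKM in Biotin-negative cells (SD, n = 3 each).

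Polymerase delta, which copies the lagging strand, was mixed. Its catalytic subunit gene Pold1 had 24.9, 24.6 and 23.4 FPKM in Biotin-positive libraries, against 15.6, 15.8 and 15.2 FPKM in Biotin-negative libraries (log2 difference 0.62, limma adjusted p = 1.76e-06). Pold3, an accessory subunit that binds PCNA, had 26.7, 26.3 and 26.01 FPKM in Biotin-positive and 18.4, 17.5 and 17.4 FPKM in Biotin-negative libraries (log2 difference 0.54, limma adjusted p = 2.8e-06). Pold2, the accessory subunit that joins Pold1 to Pold3, had 32.6, 31.7 and 29.6 FPKM in Biotin-positive libraries and 34.7, 31.1 and 32.95 FPKM in Biotin-negative libraries. The Pold2 groups overlapped and the difference of -0.07 (SE 0.0517) did not pass (limma adjusted p = 0.24). With each library rescaled to an equal sum, Pold2 was called lower (log2 difference -0.13, limma adjusted p = 0.0317).

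The catalytic and second subunits of polymerase epsilon, the leading-strand enzyme, rose by little. Pole, the catalytic subunit, had 14.6, 13.6 and 14.3 FPKM in Biotin-positive libraries, against 12.5, 13.05 and 11.99 FPKM in Biotin-negative libraries (log2 difference 0.17, limma adjusted p = 0.0127), and did not pass after rescaling to an equal sum (log2 difference 0.11, adjusted p = 0.0758). Pole2, its second subunit, had 20.1, 20.98 and 16.5 FPKM in Biotin-positive libraries, against 15.6, 15.8 and 15.9 FPKM in Biotin-negative libraries (log2 difference 0.26, limma adjusted p = 0.0161). The Pole2 call was lost when Biotin-positive replicate 1 or 2 was left out, with an adjusted p of 0.0588 or 0.0597, and Biotin-positive replicate 3 stood only just above the Biotin-negative ones. The mean log2 level of Pole and Pole2 minus that of Pold1 to Pold3 was -0.67, -0.66 and -0.73 in Biotin-positive libraries, against -0.59, -0.49 and -0.54 in Biotin-negative libraries. This ratio was lower by 0.15 in Biotin-positive cells without overlap. It too was chosen with earlier results known and follows the single genes, so no test is given.

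**Figure D4:**
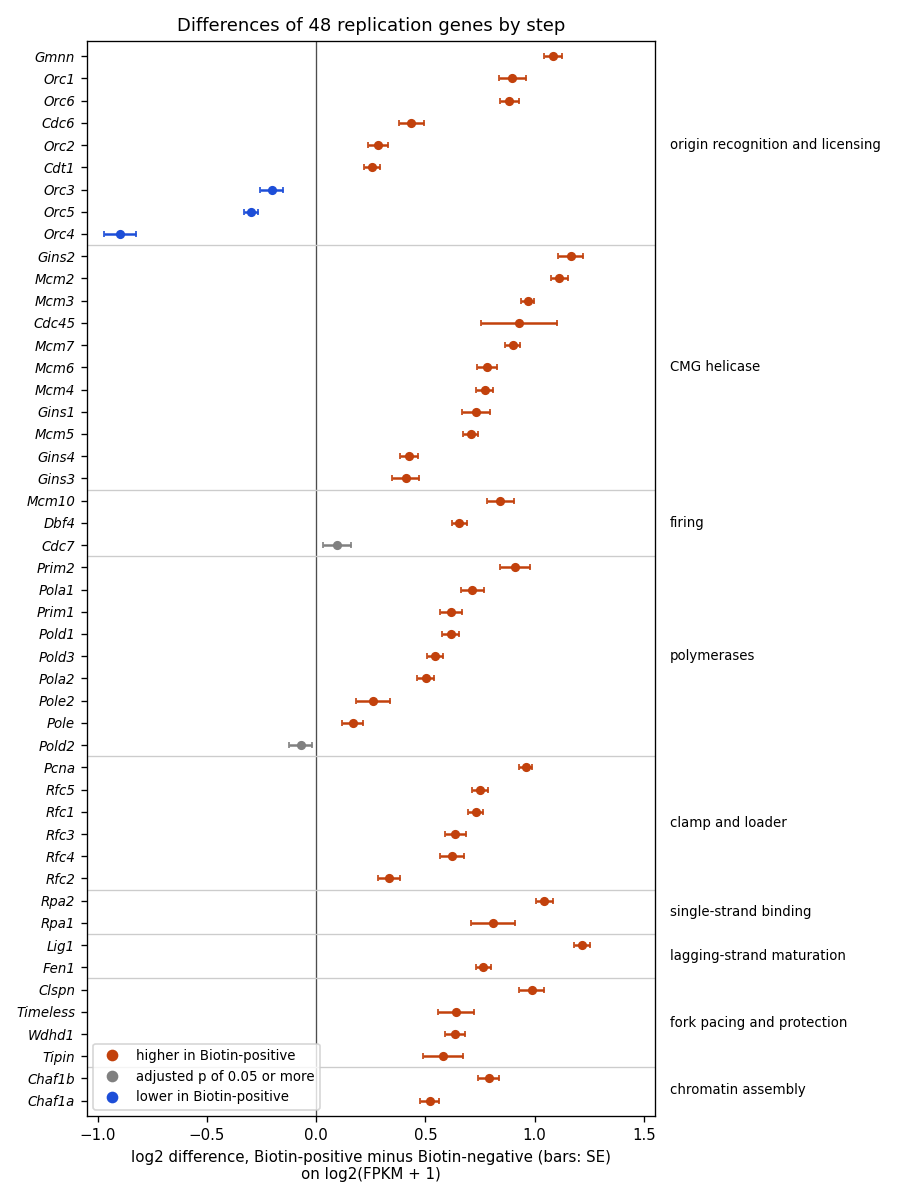
Log2 difference of each replication gene, Biotin-positive minus Biotin-negative on log2(FPKM + 1), with its standard error as a bar, ordered within each step. Orange marks the 43 genes that rose, blue the 3 that fell and grey the 2 that did not pass.

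All 6 clamp and loader genes rose, with a median log2 difference of 0.68. Pcna, the ring that tethers polymerases to DNA (chromosome 2, 132249162 to 132253314), had the highest level of the 48 genes, with 141.5, 139.2 and 135.1 FPKM in Biotin-positive libraries, against 69.6, 72.6 and 70.3 FPKM in Biotin-negative libraries (log2 difference 0.96, SE 0.0314, limma adjusted p = 3.63e-08). A share of 51.4% of its longest coding transcript has a near-identical match in the processed pseudogene Pcna-ps2, so its level is uncertain. The 5 loader subunits open the ring and set it on primed DNA. Rfc1, the largest, had 22.97, 23.1 and 23.1 FPKM in Biotin-positive libraries, against 13.6, 13.4 and 13.5 FPKM in Biotin-negative libraries (log2 difference 0.73, limma adjusted p = 3.04e-07). Rfc5 had 27.7, 26.7 and 27.5 FPKM in Biotin-positive libraries, against 16.2, 15.7 and 15.7 FPKM in Biotin-negative libraries (log2 difference 0.75, limma adjusted p = 3.2e-07). Neither gene varied much within a group.

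Rfc3 and Rfc4 lay between those and Rfc2. Rfc3 had 34.4, 32.7 and 32.00 FPKM in Biotin-positive and 22.2, 20.2 and 20.4 FPKM in Biotin-negative libraries, a log2 difference of 0.64. Rfc4 had 28.9, 26.8 and 28.2 FPKM in Biotin-positive and 16.5, 18.3 and 18.7 FPKM in Biotin-negative libraries, a log2 difference of 0.62. Rfc2 rose least of the loader subunits, with 17.2, 16.9 and 16.5 FPKM in Biotin-positive and 13.7, 12.3 and 13.6 FPKM in Biotin-negative libraries (log2 difference 0.33, limma adjusted p = 0.000321). The clamp was also compared with its loader. The log2 level of Pcna minus the mean of Rfc1 to Rfc5 was 2.42, 2.45 and 2.40 in Biotin-positive libraries, against 2.04, 2.14 and 2.05 in Biotin-negative libraries. The difference was 0.34, without overlap. This ratio was also chosen with earlier results known and follows the single genes, so no test is given.

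**Figure D5:**
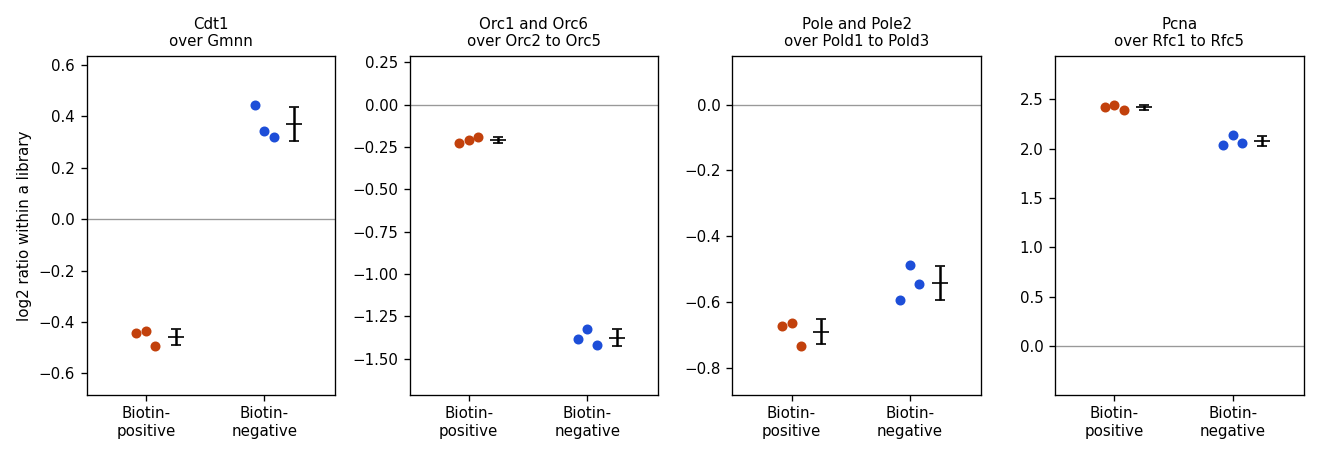
Within-library log2 ratios of 4 pairs of replication genes or gene groups on log2(FPKM + 1), with each point a library, Biotin-positive left of Biotin-negative, and the black mark the mean with its SD (n = 3). The Biotin-positive points lie below the Biotin-negative ones for Cdt1 over Gmnn and for Pole and Pole2 over Pold1 to Pold3, and above them for the other two ratios.

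Single-strand binding and lagging-strand maturation held some of the larger rises. Lig1, the ligase that seals Okazaki fragments (chromosome 7, 13277283 to 13311433), rose most of the 48 genes, with 42.2, 40.5 and 40.8 FPKM in Biotin-positive libraries, against 17.5, 17.1 and 16.7 FPKM in Biotin-negative libraries, a fold of 2.41 (log2 difference 1.22, SE 0.0362, limma adjusted p = 2.26e-08). Fen1, the nuclease that trims their flaps, had 26.04, 26.3 and 25.99 FPKM in Biotin-positive libraries, against 15.3, 14.9 and 14.7 FPKM in Biotin-negative libraries (log2 difference 0.77, limma adjusted p = 2.56e-07). Of the annotated exonic bases of Fen1 78.8% overlap the antisense gene Gm10143, and whether the counting used strand is not given in the sources used here. Rpa2, a subunit of the protein that coats single-stranded DNA, had 29.1, 29.7 and 28.1 FPKM in Biotin-positive libraries, against 13.2, 13.7 and 13.6 FPKM in Biotin-negative libraries (log2 difference 1.04, limma adjusted p = 6.87e-08). Rpa1, its large subunit, had 43.7, 37.1 and 31.1 FPKM in Biotin-positive libraries, against 20.6, 20.3 and 21.03 FPKM in Biotin-negative libraries (log2 difference 0.81, SE 0.101, limma adjusted p = 0.000105). The Biotin-positive libraries were widely spread for Rpa1 and close together for Rpa2.

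The 4 genes of fork pacing and protection rose by 0.58 to 0.99. Clspn encodes claspin, the adaptor through which stalled forks activate the checkpoint kinase CHK1. It had 15.4, 14.04 and 14.9 FPKM in Biotin-positive libraries, against 7.23, 6.49 and 7.17 FPKM in Biotin-negative libraries (log2 difference 0.99, limma adjusted p = 8.67e-07). Timeless, which forms the fork protection complex with Tipin, had 10.9, 9.33 and 11.1 FPKM in Biotin-positive libraries, against 5.80, 6.25 and 6.98 FPKM in Biotin-negative libraries (log2 difference 0.64, limma adjusted p = 0.000123). For both, every Biotin-positive library lay above every Biotin-negative one. Tipin averaged 38.6 ± 1.85 FPKM in Biotin-positive and 25.6 ± 3.63 FPKM in Biotin-negative cells (SD, n = 3 each). Wdhd1, which links the helicase to polymerase alpha, had 10.4, 9.96 and 10.1 FPKM in Biotin-positive libraries, against 6.23, 6.14 and 6.19 FPKM in Biotin-negative libraries (log2 difference 0.64, limma adjusted p = 3.35e-06).

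The chromatin assembly factor CAF-1 deposits histones behind the fork. Chaf1b, its middle subunit, had 25.7, 25.2 and 26.3 FPKM in Biotin-positive libraries, against 15.2, 14.7 and 13.6 FPKM in Biotin-negative libraries (log2 difference 0.79, limma adjusted p = 1.16e-06). Chaf1a, its large subunit, had 17.4, 16.1 and 16.96 FPKM in Biotin-positive libraries, against 11.3, 11.2 and 11.7 FPKM in Biotin-negative libraries (log2 difference 0.52, limma adjusted p = 9.73e-06). Of the exonic bases of Chaf1a 52.5% overlap Ubxn6 on the opposite strand, which itself fell to 6.996 ± 0.318 FPKM in Biotin-positive cells, against 12.4 ± 0.503 FPKM in Biotin-negative cells (SD, n = 3 each). In all, 16 of the 48 genes share exonic bases with a gene on the opposite strand. Beside Fen1, Gins2 and Chaf1a only Orc2 did so for over 20% of its exons (29.8%, with Nif3l1), and for the other 12 the share was at most 15.1%.

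By position, 9 of the 48 genes lie on chromosome 5 (18.8%, against 5.73% of all genes in the table) and 6 on chromosome 8 (12.5%, against 4.72%). Those on chromosome 8 all rose: Orc6, Cdt1, Mcm5, Gins2, Gins3 and Gins4. Over all chromosomes 43 of the 48 genes rose, as did 37.8% of all tested genes, so these counts set neither chromosome apart. Chromosome 5 held 7 that rose along with Orc5, which fell, and Cdc7, which did not pass.

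A further 50 genes that work beside this machinery, chosen with earlier results of these data known, were tested in the same fit. Of these 40 rose, 2 fell and 8 did not pass, with a median log2 difference of 0.57. Over all tested genes 37.8% rose and 36.1% fell. Under 15 alternatives 38 to 41 of the 50 rose. With a minimum of 5 FPKM Mcm9, Atad5, Dna2 and E2f2 were not tested, so fewer than 50 stood behind that count. Chtf8, a clamp-loader factor, lost its call under 9 of them, with adjusted p between 0.0547 and 0.738, and the topoisomerase gene Top1 under 3, with adjusted p between 0.069 and 0.118. The 6 that rose most came from several roles. E2f7 and E2f8 encode E2F repressors made in S phase. E2f7 averaged 11.8 ± 0.584 FPKM in Biotin-positive and 3.68 ± 0.0371 FPKM in Biotin-negative cells, and E2f8 averaged 12.6 ± 0.458 and 4.32 ± 0.219 FPKM in the same order (SD, n = 3 each), with log2 differences of 1.45 and 1.36. Top2a, the topoisomerase that untangles replicated DNA, averaged 133.0 ± 2.41 FPKM in Biotin-positive and 48.5 ± 0.762 FPKM in Biotin-negative cells (log2 difference 1.44). Topbp1, which acts both in origin firing and in checkpoint signalling, averaged 42.5 ± 0.902 FPKM in Biotin-positive and 16.6 ± 0.799 FPKM in Biotin-negative cells (log2 difference 1.30).

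Ccne1, the cyclin that drives entry into S phase, averaged 21.5 ± 0.912 FPKM in Biotin-positive and 8.61 ± 0.210 FPKM in Biotin-negative cells (log2 difference 1.23). Rpa3, the remaining subunit of the single-strand binding protein, averaged 37.7 ± 0.510 FPKM in Biotin-positive and 15.6 ± 1.51 FPKM in Biotin-negative cells (log2 difference 1.22), so all 3 subunits of that complex rose. The small subunits Pold4, Pole3 and Pole4 of polymerases delta and epsilon rose as well, by 0.77, 0.68 and 0.30. E2f1, an activator E2F, averaged 29.5 ± 0.665 FPKM in Biotin-positive and 16.2 ± 0.920 FPKM in Biotin-negative cells.

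The 2 that fell did so by little. Dna2, a nuclease of flap processing, had 3.74, 4.10 and 3.39 FPKM in Biotin-positive libraries, against 5.11, 4.49 and 4.33 FPKM in Biotin-negative libraries (log2 difference -0.25, limma adjusted p = 0.0182). Its call was lost when Biotin-positive replicate 3 (adjusted p = 0.0669) or Biotin-negative replicate 1 (adjusted p = 0.0629) was left out. E2f3, another activator E2F, had 8.23, 7.43 and 7.996 FPKM in Biotin-positive libraries, against 8.38, 8.92 and 9.07 FPKM in Biotin-negative libraries (log2 difference -0.14, limma adjusted p = 0.0482). Its call was lost with the replicate number in the model (adjusted p = 0.0764), without a filter, after quantile normalization, and without Biotin-positive replicate 2 or 3 or Biotin-negative replicate 2 or 3. Over these 7 alternatives its adjusted p lay between 0.0576 and 0.163. Those that did not pass were Lrwd1, Mcm9, Recql4, Donson, Rnaseh2b, Cul4a, Rbbp4 and Atrip. Of these, Cul4a was called lower after quantile normalization (log2 difference -0.12, limma adjusted p = 0.0119) and after rescaling to an equal sum (log2 difference -0.13, limma adjusted p = 0.00804). Lrwd1 was called higher without Biotin-negative replicate 1 (limma adjusted p = 0.015), Atrip without Biotin-negative replicate 3 (0.0041) and Rbbp4 when Biotin-positive replicate 3 was left out (0.0104).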

How the data were processed

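RNA of 3 Biotin-positive and 3 Biotin-negative L929 libraries was analysed from FPKM values that the authors deposited in a single table, with a column for each library. The submitters' processing notes name cutadapt 1.9.1, HISAT2 2.2.1, HTSeq 0.6.1 and GRCm39. The program behind the FPKM and the strandedness are not given in the sources used here. The notes' build differs from the coordinates deposited with the values, which equal those of GENCODE vM21 on GRCm38 for 21616 of 21816 shared gene identifiers, so GRCm38 is used here. No steps of single reads were seen in low values, so the depth is unknown and no counting interval is given.

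Values were taken as log2(FPKM + 1), and genes were kept for testing at 1 FPKM or above in 3 or more libraries (11029 genes). This scale understates changes of low genes. The test was limma's linear model (version 3.58.1, R 4.3.3, lmFit, eBayes with trend, two-sided, Benjamini-Hochberg over all tested genes, threshold 0.05) without the replicate number. It was tried on simulated data in which 200 genes were changed, far fewer than were called in the real data. It recovered 36% of log2 changes of 0.25, 84% of 0.5, 96% of 1 and 100% of 2, so small changes can be missed. Ratios were formed within each library and are described without a test. With 3 libraries per group an exact permutation test cannot give a p under 0.1. Near-identical transcripts were searched with blastn 2.17.0 (at least 98% identity over 100 bases) in GENCODE vM21, whose exons also gave the overlaps. Data were handled with pandas 2.3.3, numpy 2.4.6 and data.table (version 1.17.8), and figures drawn with matplotlib 3.10.9 in Python 3.11.15.

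The members, the steps, the ratios, the further genes and the markers were chosen with earlier results of these data known. Values per library are given for the 3 largest changes in each step, every gene that fell or did not pass, and the genes in the ratios, other members by their means. Values per library of Cdc45 were added for their spread, after they were seen. Of the 50 further genes, the 6 largest changes and those that fell are described, and the others named were chosen after their values were seen. Alternatives were pseudocounts of 0.1 and 0.5, no filter, a minimum of 5 FPKM, median of ratios, quantile and equal-sum scaling, eBayes without trend, the replicate number as a block, and leaving out each library.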

Additional observations from a re-analysis of the deposited data

How the results depend on the processing

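Over 15 alternatives the count of replication genes that rose was 42 or 43 and the count that fell 3 or 4, and of 720 repeats of single-gene results 716 kept their direction and their side of the threshold. The exceptions were Pole2 without Biotin-positive replicate 1 or 2, and Pole and Pold2 after rescaling to an equal sum, all given above. The median log2 difference of the 48 genes was 0.72 with a pseudocount of 0.1, 0.70 with 0.5, 0.65 after quantile normalization, 0.62 after rescaling to an equal sum, and 0.66 to 0.71 when each library was left out. The count of further genes that rose was 38 to 41. The count that fell was 1 without a filter, with a minimum of 5 FPKM and with the replicate block. It was 3 after rescaling to an equal sum, and 0 to 2 when each library was left out. With the minimum of 5 FPKM Dna2, Atad5 and E2f2 lost their calls because they were no longer tested. The count over all tested genes was 4113 higher and 3927 lower with the replicate block, which changed no call among the 48 genes. Deviations from the group means of same-numbered libraries correlated at 0.037, 0.012 and 0.014 across tested genes. This does not settle whether same-numbered libraries came from a shared culture. The 4 ratios kept their direction under 2 other pseudocounts and without each library: Cdt1 over Gmnn lay between -0.85 and -0.79, Orc1 and Orc6 over the other subunits between 1.15 and 1.27, polymerase epsilon over delta between -0.17 and -0.12, and Pcna over its loader between 0.33 and 0.38. Unknown depth limits the precision of the lowest genes, Cdc6, Orc1 and Cdc45.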
